A study of Mus musculus with 2 samples.

Results

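The genes described here are 31 genes of mitochondrial and peroxisomal fat oxidation, out of 27998 genes in the tables. They were taken by symbol, and all 31 symbols were found. By the compartment of the protein, 16 are mitochondrial, 8 peroxisomal and 2 act in both compartments. The other 5 were grouped as fatty acid activation and entry. That group also holds Acot12, a hydrolase of acetyl-CoA, which does not activate fatty acids. Nuclear RNA from mouse liver was counted by droplet-based 3′ sequencing. The mice were C57BL/6 and 12 weeks old, and the livers were taken 48 h after PHx, partial hepatectomy, an operation that removes liver lobes and sets off regrowth. The HKO library is that of the Sox9HKO mice of the study design, after PHx. The WT library is that of its Sox9f/f mice after PHx, which carry the floxed Sox9 allele. The labels do not spell out HKO, do not name the Cre line or the deleted part of Sox9, and do not say how many animals stand behind a library. Each group is 1 library, so no test of a difference was possible, no p-value is given, and "higher" and "lower" describe the size of a difference between these 2 libraries.

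Hepatocytes break down fatty acids in mitochondria and peroxisomes. Long chains are activated to acyl-CoA and carried into mitochondria as carnitine esters. Fatty acids are shortened there in repeated cycles of dehydrogenation, hydration, oxidation and thiolysis. Electrons are passed to the respiratory chain through the electron transfer flavoprotein. Peroxisomes take very long and branched chains and dicarboxylic acids, shorten them by a parallel set of enzymes, and export the products as carnitine esters or free acids. In fed and fasted liver these genes are known targets of the nuclear receptor PPAR alpha, and fat oxidation differs along the axis from the portal field to the central vein.

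For 25 of the 31 members the RefSeq table of promoters held a window of 250 bases before to 50 bases after the transcription start (GRCm38.p6). Acaa2, Decr1, Abcd2, Hsd17b4, Crat and Slc27a5 had no entry. Windows of 3 members are printed, each 5′ to 3′ on its gene's own strand. The window of Nudt7, the member with the lowest library ratio, is at one of its listed starts (chr8:114133368-114133667, plus strand), and capitals mark GC boxes, the letters GGGCGG on either strand. The window of Hadhb (chr5:30155003-30155302, plus strand) is shown because it shares 228 bases with that of Hadha, the partner subunit that runs the other way from a start 273 bases off, and because the library ratios of the pair were alike. Capitals again mark GC boxes. The window of Acadm (chr3:153944594-153944893, minus strand) is shown because Acadm had the highest library ratio of the mitochondrial members, and capitals mark AGGTCA, a hexamer that nuclear receptors bind, on either strand.
Nudt7: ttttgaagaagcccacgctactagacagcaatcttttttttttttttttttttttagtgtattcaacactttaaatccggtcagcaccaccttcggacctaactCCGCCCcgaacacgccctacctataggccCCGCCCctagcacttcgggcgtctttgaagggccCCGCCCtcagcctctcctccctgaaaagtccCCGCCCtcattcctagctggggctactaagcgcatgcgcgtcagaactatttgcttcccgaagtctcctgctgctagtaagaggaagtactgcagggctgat
Hadhb: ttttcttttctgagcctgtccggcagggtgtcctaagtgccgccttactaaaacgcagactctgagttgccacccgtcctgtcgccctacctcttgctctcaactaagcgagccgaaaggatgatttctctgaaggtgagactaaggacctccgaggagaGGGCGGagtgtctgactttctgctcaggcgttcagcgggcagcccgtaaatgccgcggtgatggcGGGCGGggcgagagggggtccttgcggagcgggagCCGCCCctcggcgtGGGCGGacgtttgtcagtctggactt
Acadm: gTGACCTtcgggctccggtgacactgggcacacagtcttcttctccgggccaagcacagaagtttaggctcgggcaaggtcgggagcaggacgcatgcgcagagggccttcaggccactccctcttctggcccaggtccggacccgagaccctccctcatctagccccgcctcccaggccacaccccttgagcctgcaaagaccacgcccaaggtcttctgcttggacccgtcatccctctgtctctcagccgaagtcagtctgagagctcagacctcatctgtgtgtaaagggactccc
GC boxes were present 4 times each in the Nudt7 and Hadhb windows. Of the 25 matched members, 19 held a GC box (76.0%), against 38.2% of the 27025 genes with a window, and 4 held AGGTCA (Acadm, Acadvl, Acot12 and Slc27a2, 16.0%), against 18.1% of genes. The direct repeat of 2 copies of AGGNCA spaced by 1 base, which can contain AGGTCA, was searched on both strands and was in none of the matched members' windows and in 0.451% of genes. These matches describe letters in a window, and nothing was measured here on binding.

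After a minimum of 500 genes and a limit of 10% mitochondrial UMIs (unique molecular identifiers, each a counted transcript molecule), 14902 HKO and 14515 WT barcodes were kept, with 61123904 and 64609301 UMIs in the deposited tables. Both libraries were clustered together, and clusters were named by marker genes. Hepatocyte-like was the class left for clusters that fitted no other class. It asked for at least 3 of 15 hepatocyte markers above their median in the same library's clusters of other classes. An HKO cluster met this with 3 of 15, while the WT endothelial-like cluster had 9 above. The hepatocyte-like class held 8752 HKO and 9689 WT nuclei with 38478176 and 44095351 UMIs, and the 2 libraries filled it from different clusters, 3 in HKO and 3 in WT. The libraries stood apart in quality. Mitochondrial UMIs made up a median share of 0.0753% of a hepatocyte-like nucleus in HKO, against 0.272% in WT. The nuclear RNA Malat1 stood at 50654 CPM (counts scaled so that each class sums to 1000000) in HKO and at 37895 CPM in WT, and Alb at 2553 CPM in HKO against 6106 CPM in WT. Sox9 itself measured 5.77 CPM in HKO against 11.4 CPM in WT, levels around the floor of 10 CPM used below. It was lower in HKO in other classes too, at 5.99 against 8.61 CPM in endothelial-like nuclei. In macrophage-like nuclei it had 6.02 CPM in HKO against 8.63 CPM in WT, and in stellate-like nuclei 4.92 against 8.52 CPM. The libraries shared 70 barcodes. The 15 hepatocyte markers were all detected in hepatocyte-like nuclei. They were also all detected in endothelial-like, macrophage-like and stellate-like nuclei, so their detection does not set the class apart. The 12 endothelial markers summed to 202 CPM there in HKO and 207 CPM in WT, against 3540 and 3251 CPM in the endothelial-like nuclei of HKO and WT. The sums of the 12 macrophage markers were 262 CPM for HKO against 283 CPM for WT, and those of the 12 stellate markers 87.3 CPM for HKO against 186 CPM for WT. Haemoglobin transcripts reached 36.0 CPM in HKO, against 2.31 CPM in WT. At the main resolution of 0.5, a cluster of 1802 WT and 6 HKO nuclei led by mitochondrial genes was left unnamed. It was kept out of the hepatocyte-like class, though 11 of 15 hepatocyte markers were above that median. Clustering at resolution 1 set apart 1523 HKO nuclei whose leading genes were those of haemoglobin, and that cluster was left unnamed. The part of depth, mitochondrial share, haemoglobin transcripts and the unnamed clusters in the results was not tested.

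In hepatocyte-like nuclei the fat oxidation genes did not differ as a block between the libraries. Of the 31 members, which all passed the floor of a mean of 10 CPM, 1 was at least 2-fold higher in HKO (Crat), 3 were at least 2-fold lower (Nudt7, Crot and Acsl5) and 27 lay between. Among all 8415 genes that passed the floor, 2.99% were at least 2-fold higher and 4.4% at least 2-fold lower in HKO. Nudt7 was also among the 10 genes that led the largest WT hepatocyte-like cluster, so its level may have taken part in the clustering. The median log2 ratio of HKO over WT, taken after adding 0.5 CPM, was 0.24 for the members and 0.16 for all genes. Above 0 were 21 of the 31 members, against 66.4% of all genes, so the members' lean towards HKO was close to that of all genes. Scaling by the median ratio or by TMM moved all log2 ratios by -0.14 or -0.12 and left the members' median 0.08 above that of all genes, as before. The split of all genes past 2-fold was 252 higher and 370 lower, and with median ratio scaling 181 higher and 495 lower.

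**Figure D1:**
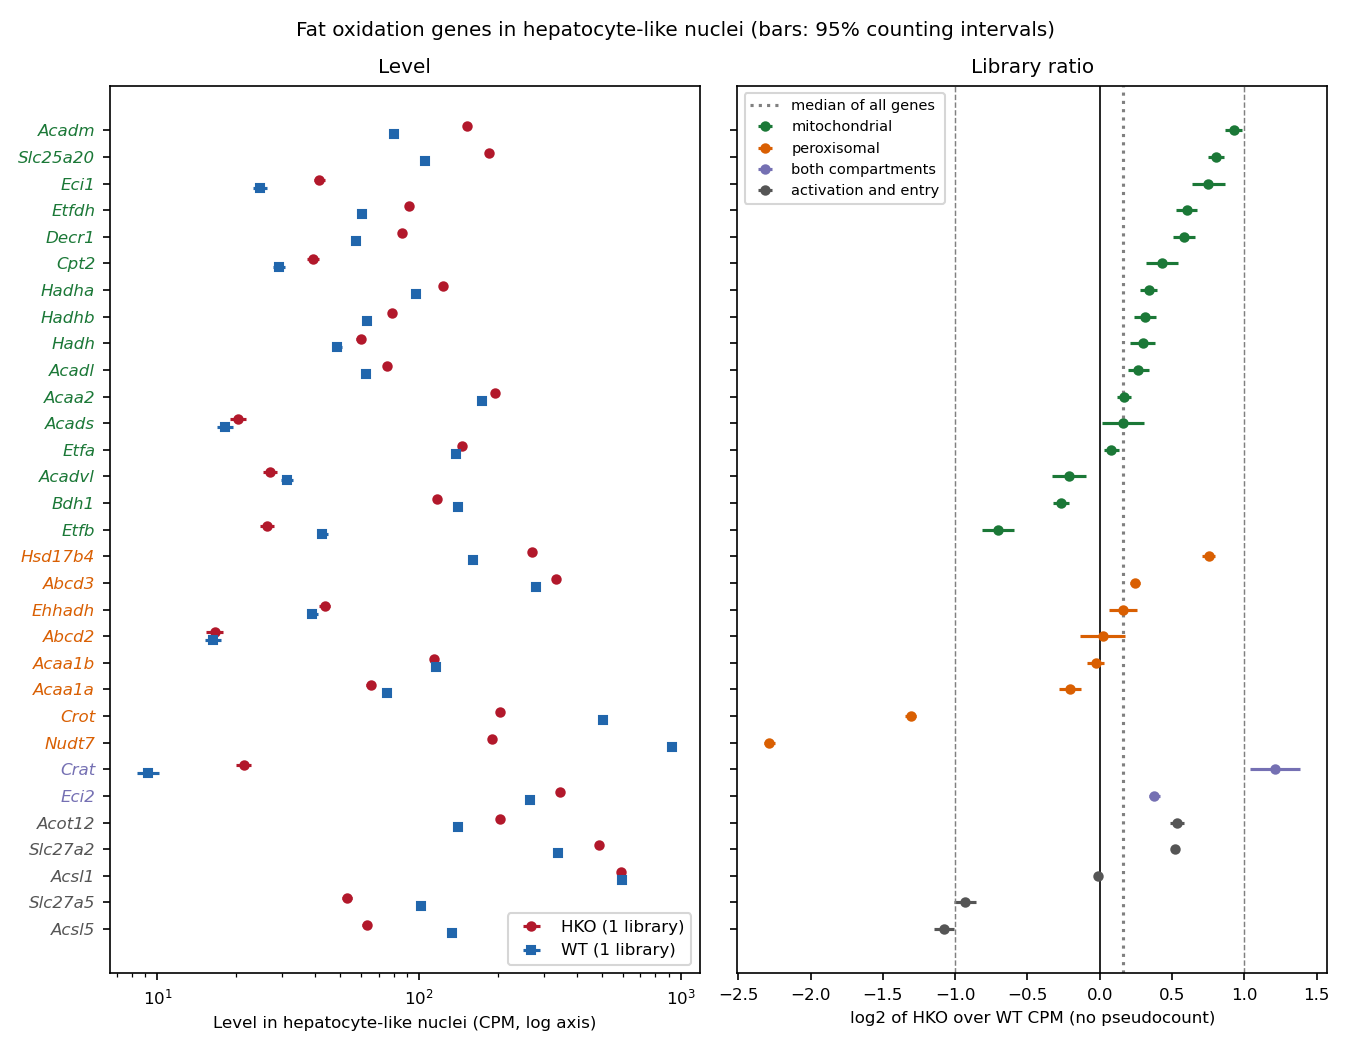
Left, the level of each member in hepatocyte-like nuclei in CPM on a log axis, HKO (red circles) above WT (blue squares). Right, the log2 ratio of HKO over WT CPM without a pseudocount, coloured by compartment. Bars are 95% counting intervals, dashed lines mark a 2-fold difference and the dotted line the median of all genes. Nudt7 and Crot lie farthest to the left, Crat farthest to the right, and none of the 16 mitochondrial members lies past a dashed line.

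The median log2 ratio of the mitochondrial members was above that of the peroxisomal members. The median log2 ratio was 0.30 for the 16 mitochondrial members and -0.0039 for the 8 peroxisomal members. Above 0 were 13 of the 16 mitochondrial members and 4 of the 8 peroxisomal ones (all genes 66.4%). Above the median of all genes lay 11 of the 16 and 2 of the 8. None of the 16 mitochondrial members was at least 2-fold higher (all genes 2.99%) or lower (4.4%). Of the 8 peroxisomal members, 2 were at least 2-fold lower. With shares of all genes this small, the lack of such mitochondrial members is not read as a trait of theirs. The sign of the peroxisomal median depended on the nuclei used: it was 0.12 among nuclei with no G2 and mitosis UMI and 0.054 among those with a mitochondrial share of 0.1% to 0.2%, where the mitochondrial median was 0.36 and 0.27. In endothelial-like nuclei the medians were 0.18 for the mitochondrial and 0.10 for the peroxisomal members, against 0.16 for all genes. The mitochondrial and peroxisomal medians were 0.31 and -0.02 in macrophage-like nuclei (all genes 0.11). In stellate-like nuclei they were 0.33 and -0.05 (all genes 0.15).

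Entry of acyl groups into mitochondria was represented by Slc25a20, the carnitine-acylcarnitine carrier of the inner membrane, and Cpt2, which turns the imported carnitine esters back into acyl-CoA. Slc25a20 (chr9:108662088-108684641, plus strand) had 184 CPM (95% counting interval 179.9 to 189) in HKO against 106 CPM (103 to 109) in WT. The HKO level was higher by a log2 ratio of 0.80, a fold of 1.75 (1.68 to 1.81). Cpt2 had 39.4 CPM in HKO against 29.2 CPM in WT, a log2 ratio of 0.42. Both genes of this step were therefore higher in HKO, by less than 2-fold.

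The acyl-CoA dehydrogenases open each cycle and divide the chain lengths among them. Acadm, the medium-chain enzyme (chr3:153922357-153944632, minus strand), had 153 CPM (149 to 157) in HKO against 80.5 CPM (77.8 to 83.2) in WT, a log2 ratio of 0.92 and a fold of 1.90 (1.82 to 1.98). In nuclei with no UMI of the 29 genes of G2 and mitosis its log2 ratio was 1.02. It was the highest of the mitochondrial members and the only dehydrogenase of the 4 near a 2-fold difference. Acadl, for long chains, had a log2 ratio of 0.27, with 75.6 CPM in HKO against 62.8 CPM in WT. Acads, for short chains, had 20.3 CPM in HKO against 18.2 CPM in WT. Acadvl, for very long chains, ran the other way, with 27.0 CPM in HKO against 31.2 CPM in WT, a log2 ratio of -0.21.

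Electrons leave the dehydrogenases through the electron transfer flavoprotein, whose subunits are Etfa and Etfb, and then through its dehydrogenase, Etfdh, into the ubiquinone pool. The 3 genes did not share a direction. Etfdh (chr3:79603788-79629500, minus strand) had 91.6 CPM (88.6 to 94.7) in HKO against 60.3 CPM (58.1 to 62.7) in WT, a log2 ratio of 0.60. Etfa was nearly level, at 146 CPM in HKO against 138 CPM in WT, a log2 ratio of 0.08, and -0.06 with median ratio scaling. Etfb (chr7:43444083-43457800, plus strand) had 26.2 CPM (24.6 to 27.9) in HKO against 42.7 CPM (40.8 to 44.7) in WT, a log2 ratio of -0.69. Etfb was the lowest of the mitochondrial members. Its level moved with the mitochondrial share of a nucleus: in nuclei above the median of that share, against those below, it was higher by a log2 of 0.39 in HKO and 0.54 in WT. Acadvl did likewise, at 0.45 in HKO and 0.30 in WT. The part of the mitochondrial share in these library ratios was not tested, but among nuclei with a mitochondrial share of 0.1% to 0.2% in both libraries Etfb was at a log2 ratio of -0.40 and Acadvl at 0.07.

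Hydration, the next oxidation and thiolysis of long chains are carried out by the mitochondrial trifunctional protein, made of Hadha and Hadhb. Hadha had 123 CPM in HKO against 97.5 CPM in WT, and Hadhb had 78.7 CPM in HKO against 63.3 CPM in WT. Their log2 ratios, 0.34 and 0.31, differed by less than the width of their counting intervals. Hadh, the short-chain 3-hydroxyacyl-CoA dehydrogenase, was at 0.29, with 59.7 CPM in HKO against 48.6 CPM in WT. Acaa2, the mitochondrial thiolase, was at 0.17, with 196 CPM in HKO against 174 CPM in WT.

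Decr1 and Eci1 prepare unsaturated chains for the cycle, as dienoyl-CoA reductase and enoyl-CoA isomerase. Eci1 (chr17:24426641-24439348, plus strand) had 41.6 CPM (39.5 to 43.6) in HKO against 24.7 CPM (23.2 to 26.2) in WT, a log2 ratio of 0.74. Decr1 had 85.7 CPM in HKO against 57.3 CPM in WT, a log2 ratio of 0.58. Bdh1, which interconverts the ketone bodies acetoacetate and 3-hydroxybutyrate (chr16:31422280-31458901, plus strand), had 117 CPM (113 to 120.3) in HKO against 140.5 CPM (137 to 144) in WT, a log2 ratio of -0.26. The auxiliary enzymes for unsaturated chains were thus higher in HKO, and the ketone body enzyme lower.

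The 2 largest differences among the members were in peroxisomal genes. Nudt7, a peroxisomal pyrophosphatase that breaks down coenzyme A and its esters (chr8:114133557-114154739, plus strand), had 7296 UMIs or 189.6 CPM (185 to 194) in HKO against 40760 UMIs or 924 CPM (915 to 933) in WT. Its log2 ratio was -2.28, and the WT level was 4.87-fold that of HKO (4.75 to 4.999). Among nuclei with a mitochondrial share of 0.1% to 0.2% in both libraries the log2 ratio was -2.32. After each nucleus was thinned to 2000 UMIs, 29.6% of 7745 HKO nuclei and 80.0% of 9599 WT nuclei held a Nudt7 UMI, with 1007 HKO and 90 WT shallower nuclei left out. Without thinning the shares were 49.1% in HKO and 92.6% in WT, at a median of 3904 and 3813 UMIs. Crot, which makes carnitine esters of shortened chains for export from the peroxisome (chr5:8966033-8997324, minus strand), had 205 CPM (200.1 to 209) in HKO against 506 CPM (499 to 513) in WT. Its log2 ratio was -1.30, and the WT level was 2.47-fold that of HKO (2.41 to 2.54). After thinning, 32.7% of HKO and 60.8% of WT nuclei held a Crot UMI.

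The other 6 peroxisomal members lay between a log2 ratio of -0.20 and 0.75. Hsd17b4, the D-specific multifunctional enzyme that hydrates and oxidizes very long and branched chains (chr18:50128201-50196269, plus strand), had 271 CPM (266 to 276) in HKO against 161 CPM (157 to 164) in WT, a log2 ratio of 0.75. Ehhadh, its counterpart for the L-intermediates and dicarboxylic acids, had 43.7 CPM in HKO against 39.1 CPM in WT, a log2 ratio of 0.16. The peroxisomal thiolases Acaa1a and Acaa1b were at -0.20 and -0.03. Acaa1a had 65.4 CPM in HKO against 75.3 CPM in WT, and Acaa1b had 114 CPM in HKO against 116 CPM in WT. They are near-identical neighbours on chromosome 9, so the counting could have split or dropped reads between them, and their separate values are uncertain. Of the membrane transporters, Abcd3, which carries branched chains and bile acid precursors, was at 0.24 with 332 CPM in HKO against 280.5 CPM in WT. Abcd2, which carries very long unsaturated chains, was at 0.02 with 16.6 CPM in HKO against 16.3 CPM in WT, and its sign changed with the scaling.

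Both members that act in both compartments were higher in HKO. Crat, carnitine acetyltransferase (chr2:30400471-30415813, minus strand), had 821 UMIs or 21.3 CPM (19.9 to 22.8) in HKO against 406 UMIs or 9.21 CPM (8.33 to 10.1) in WT. Its log2 ratio of 1.17, a fold of 2.32 (2.06 to 2.62), was the highest of all 31 members, at a level close to the floor. It was 0.98 among nuclei with no G2 and mitosis UMI. Eci2, an enoyl-CoA isomerase, had 344 CPM in HKO against 265 CPM in WT, a log2 ratio of 0.38.

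The members grouped as activation and entry split by gene. Acsl5, a long-chain acyl-CoA synthetase (chr19:55251938-55297720, plus strand), had 63.2 CPM (60.7 to 65.7) in HKO against 133 CPM (130.1 to 137) in WT. Its log2 ratio was -1.07, and the WT level was 2.11-fold that of HKO (2.02 to 2.22). Slc27a5, the bile acid and very long chain acyl-CoA synthetase (chr7:12988346-12998192, minus strand), had 53.1 CPM (50.8 to 55.4) in HKO against 101 CPM (98.4 to 104) in WT, a log2 ratio of -0.93. It was just short of the 2-fold limit, and past it in 4 of 13 alternatives of scaling and nuclei used, with values between -1.08 when all nuclei were kept and -0.69 among nuclei with a mitochondrial share of 0.1% to 0.2%. Acadm was just short of it on the other side, and Acsl5 and Crat were the members just past it. Acsl1, the main long-chain acyl-CoA synthetase of liver, was level, at 590 CPM in HKO against 595 CPM in WT. Slc27a2, which takes up and activates very long chains, had 487 CPM in HKO against 339 CPM in WT, a log2 ratio of 0.52. Acot12, a cytosolic hydrolase of acetyl-CoA, had 203 CPM in HKO against 140.3 CPM in WT, a log2 ratio of 0.53.

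The median of related genes that are not members was close to that of all genes. Of 46 other genes of fat oxidation and its control, 38 passed the floor, and 3 of these were at least 2-fold higher in HKO (all genes 2.99%) and 1 at least 2-fold lower (4.4%), with a median log2 ratio of 0.14 against 0.16 for all genes. With either other scaling 2 were higher (all genes 181 or 188 of 8422). Without a floor 6 of the 46 were higher (all genes 477 of 27998). Those added were Acot1 at 1.77, Acot2 at 1.67 and Acot3 at 1.33, all under the floor. Past the floor, the higher genes were Hsdl2, a peroxisomal dehydrogenase-like protein, at 1.31, and Abcd4, an ABC transporter of the lysosome, at 1.15. Ppargc1a, the coactivator PGC-1 alpha, was higher too, at 1.09, with 134 CPM in HKO against 62.8 CPM in WT. Lower was Fabp1, the liver fatty acid binding protein, at -2.77, with 84.4 CPM in HKO against 577 CPM in WT. Within 2-fold, Cpt1a, the regulated carnitine transferase of the outer mitochondrial membrane, had 347 CPM in HKO against 194 CPM in WT, a log2 ratio of 0.84. Ech1 stood at 0.77, Decr2 at 0.48 and Pecr, a peroxisomal enoyl-CoA reductase, at -0.55. Ppara, the receptor, was chosen after its value was seen and was at 0.28, with 1465 CPM in HKO against 1206 CPM in WT.

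Genes of the citrate cycle and respiratory chain and of peroxisome assembly showed no common difference either. All 37 listed genes of the citrate cycle and respiratory chain passed the floor, with a median of 0.14. None was at least 2-fold higher (all genes 2.99%), and 2 were at least 2-fold lower (4.4%). These were the cytochrome oxidase subunits Cox4i1 at -1.36 (26.4 CPM in HKO, 68.5 CPM in WT) and Cox6c at -1.03 (24.7 CPM in HKO, 51.1 CPM in WT). Of 16 genes of peroxisome assembly, 13 passed the floor, with a median of 0.26. Only Pex11a, which takes part in peroxisome division, was at least 2-fold higher (all genes 2.99%), and none was 2-fold lower (4.4%). Pex11a was at 1.57, with 59.2 CPM in HKO against 19.6 CPM in WT, followed by Pex13 of the import pore at 0.56. So the lower Nudt7 and Crot stood among peroxisomal genes of which most differed by less than 2-fold.

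**Figure D2:**
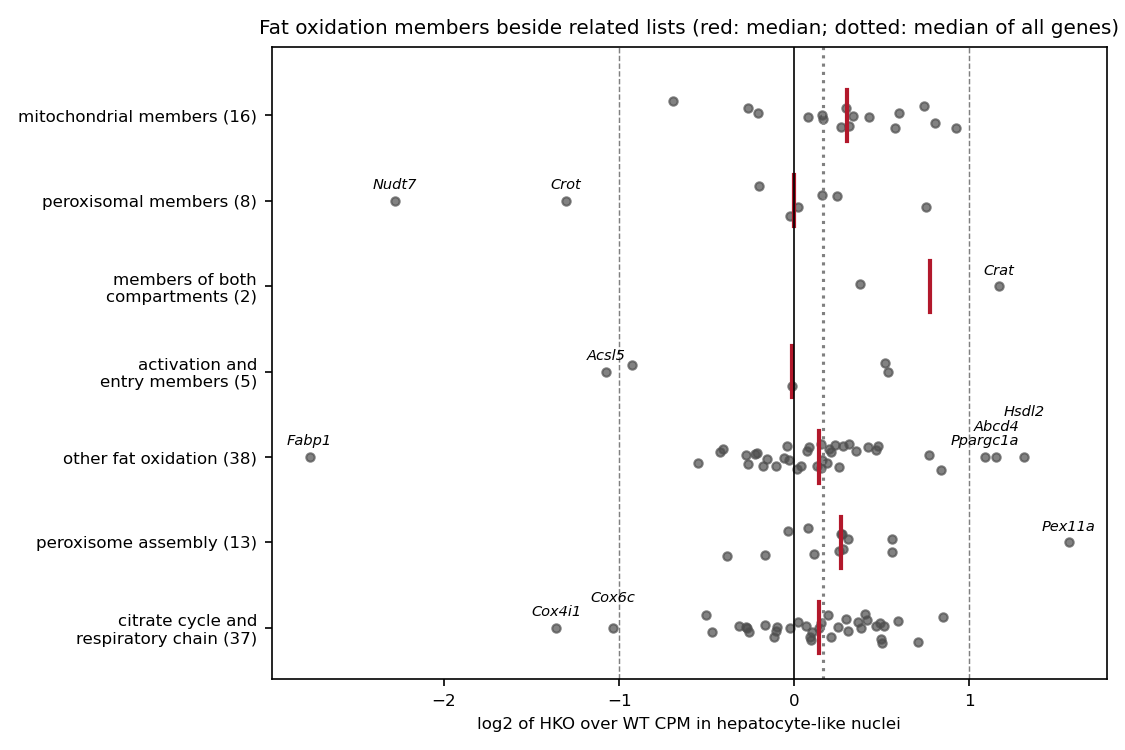
Log2 ratio of HKO over WT CPM in hepatocyte-like nuclei for the members by compartment and for 3 related lists, 1 point a gene, for genes past the floor. Red bars are medians, the dotted line is the median of all genes, 0.16, and genes past a 2-fold difference (dashed lines) are named. Most points of every list lie between the dashed lines.

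The library ratios of the members were much the same in nuclei named as other cell types. Endothelial-like nuclei (2305 in HKO, 1124 in WT), macrophage-like nuclei (1776 in HKO, 1059 in WT) and stellate-like nuclei (1138 in HKO, 624 in WT) gave median log2 ratios of the members of 0.18, 0.22 and 0.20, against 0.16, 0.11 and 0.15 for all genes of those classes. In endothelial-like nuclei 1 member was at least 2-fold higher (all genes 2.65%) and 4 at least 2-fold lower (4.43%). In macrophage-like nuclei none was higher (2.64%) and 2 were lower (3.82%). In stellate-like nuclei none was higher (2.73%) and 5 were lower (4.41%). Nudt7 was at -2.21, -2.32 and -2.18 in the endothelial-like, macrophage-like and stellate-like nuclei, and Crot at -1.29, -1.32 and -1.17. The median size of the gap between a member's ratio in a class and in hepatocyte-like nuclei was 0.11 in endothelial-like, 0.09 in macrophage-like and 0.11 in stellate-like nuclei.

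Levels in these classes were moderately below those in hepatocyte-like nuclei. As a percentage of the hepatocyte-like CPM, the median member stood at 86.0% in HKO and 89.9% in WT in endothelial-like nuclei, at 83.8% and 85.6% in macrophage-like nuclei of HKO and WT, and at 79.1% and 78.6% in stellate-like nuclei of HKO and WT. The median of all genes lay between 94.6% and 100.7% over these classes and libraries. The hepatocyte markers, which those cell types should lack, stood at 84.6% in HKO and 95.4% in WT in endothelial-like nuclei, with none of the 15 at 0. A Nudt7 UMI was found, after thinning, in 25.6% of HKO and 71.0% of WT endothelial-like nuclei, at unthinned median depths of 2043 and 3258 UMIs. This thinning left out 1123 of 2305 HKO and 22 of 1124 WT endothelial-like nuclei, and without it the shares were 31.7% in HKO and 81.7% in WT. The members' UMIs in these classes are therefore not read as expression by those cell types, and the ratios there are not separate evidence. RNA free in the suspension and RNA of the nucleus cannot be told apart here for a single barcode, in hepatocyte-like nuclei as well. The widest gaps between classes were Etfb, at -1.22 in endothelial-like nuclei against -0.69 in hepatocyte-like nuclei, Acads in macrophage-like nuclei, at 0.61 against 0.16, and Crat in stellate-like nuclei, at 0.39 against 1.17. Acads rested there on 154 HKO and 84 WT UMIs, and Crat on 68 HKO and 34 WT UMIs. For both, the counting intervals of the fold overlapped those in hepatocyte-like nuclei. Those of Etfb, from 188 HKO and 266 WT endothelial-like UMIs, did not overlap.

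**Figure D3:**
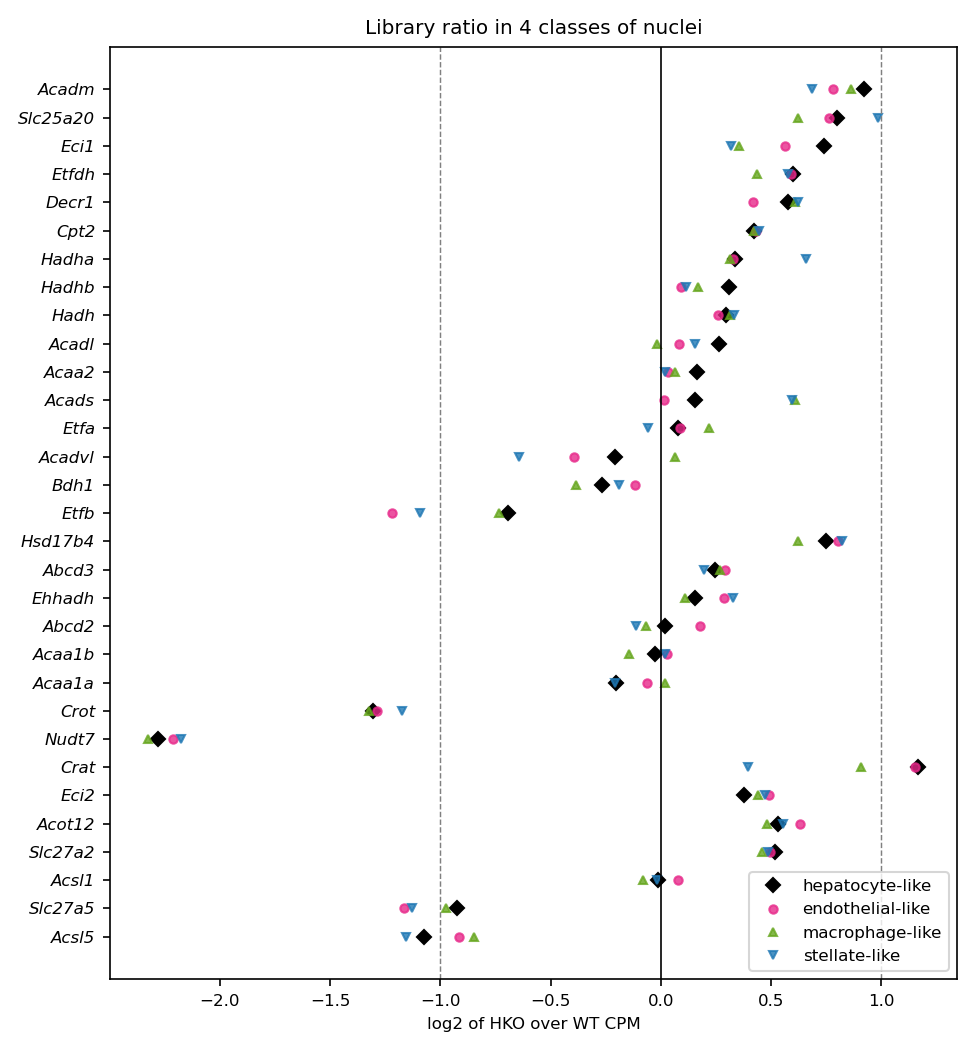
Log2 ratio of HKO over WT CPM of each member in 4 classes of nuclei, 1 marker a class, members ordered as by compartment and ratio in hepatocyte-like nuclei. Dashed lines mark a 2-fold difference. Nudt7 and Crot lie past the left line in all 4 classes, and for most members the markers of the 4 classes lie close together.

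Zonation was read by ranking the hepatocyte-like nuclei of each library on the share of pericentral among pericentral and periportal landmark UMIs (15 genes each, none a member), for nuclei with at least 10 landmark UMIs. This kept 7491 of 8752 HKO and 9470 of 9689 WT nuclei, cut by rank into 3 equal zones within each library. The score itself differed between the libraries, so the zones are not the same range: the middle zone had a median score of 20% in HKO and 40% in WT. With each landmark left out of the score in turn, all 15 pericentral landmarks were higher in the pericentral zone and 14 of 15 periportal landmarks lower, in both libraries. Zones are ranges of a score and not cell types: 722 HKO and 666 WT nuclei lay within 2 points of the lower cut.

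Few members were zonated. At the limit used, a log2 ratio of 0.5 between the pericentral and periportal zones, 1 member was zonated in both libraries, Abcd2, which was periportal (all genes 1.75%), and none was pericentral in both (1.81%). In HKO none of the members was pericentral (4.08%) and only Abcd2 periportal (2.67%). In WT the pericentral members were Acaa1b and Acsl1 (2.97%), and only Abcd2 was periportal (3.15%). The number pericentral in WT was 3 between the outermost of 5 equal zones and 4 among nuclei with no G2 and mitosis UMI. No share of all genes is given for these settings, so these numbers are not read against the shares above. Abcd2 had 21.5, 18.5 and 10.4 CPM in the periportal, middle and pericentral zones of HKO and 20.7, 17.1 and 10.8 CPM in those of WT. Its log2 ratio of pericentral over periportal was -1.01 in HKO and -0.90 in WT, and the profiles of the libraries nearly coincided.

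Most members leaned less to the central vein in HKO than in WT. The median log2 ratio of pericentral over periportal was -0.06 in HKO and 0.14 in WT. Above 0 were 12 of the 31 members in HKO (all genes 51.5%) and 25 of the 31 in WT (48.6%). The HKO value was below the WT value for 25 of the 31 members, against 46.6% of all genes. The related lists leaned the same way, so this lean was not particular to the members. HKO was below WT for 28 of 37 genes of the citrate cycle and respiratory chain. The same held for 26 of 38 other fat oxidation genes and 10 of 13 peroxisome assembly genes. Median differences, HKO minus WT, were -0.11, -0.06 and -0.06 in these lists. The difference, HKO minus WT, had a median of -0.15 for the members and 0.01 for all genes. It was below 0 for 14 of the 16 mitochondrial, 6 of the 8 peroxisomal and 4 of the 5 members grouped as activation and entry. A difference of -0.5 or less was seen for 5 members, Acaa1b, Acsl1, Eci2, Decr1 and Bdh1, against 1.3% of all genes, and a difference of 0.5 or more for none, against 3.24% of all genes. The number at -0.5 or less was 4 after thinning to 2000 UMIs, 7 between the outermost of 5 equal zones and 8 among nuclei with no G2 and mitosis UMI. The share of all genes under these settings is not given, so a higher or lower number is not read as a stronger or weaker result. Whether the zonation difference of HKO minus WT exceeds that between animals could not be tested with 1 library per group.

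**Figure D4:**
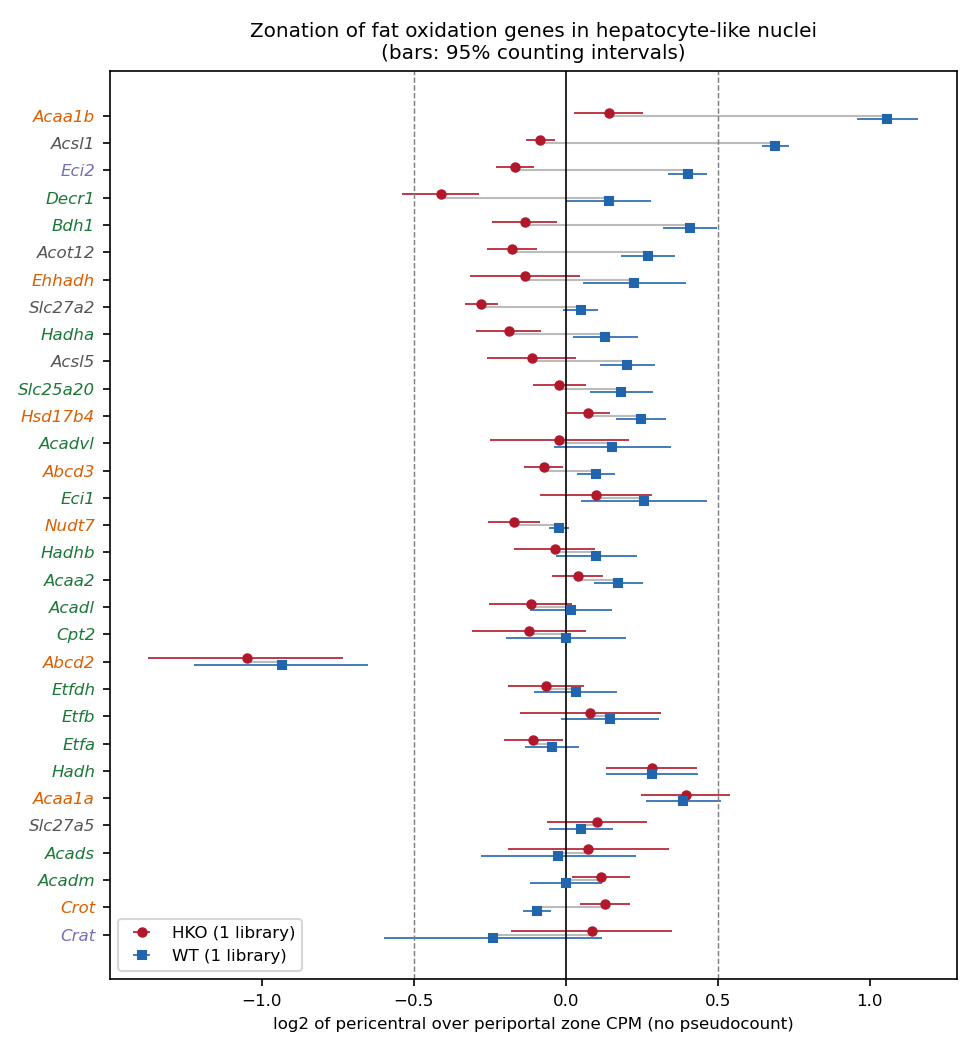
Log2 ratio of pericentral over periportal CPM without a pseudocount for each member, HKO (red circles) and WT (blue squares) joined by a grey line, ordered from the lowest to the highest difference of HKO minus WT. Bars are 95% counting intervals and dashed lines mark the limit of 0.5. HKO lies left of WT for most members, most widely for Acaa1b and Acsl1, and Abcd2 lies far to the left in both libraries.

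Acaa1b showed the widest gap. It had 105, 115 and 116 CPM in the periportal, middle and pericentral zones of HKO and 78.9, 108 and 164 CPM in those of WT. Its log2 ratio was 0.14 in HKO and 1.05 in WT, so that its level was almost flat in HKO and climbed to the central vein in WT. Its neighbour Acaa1a did not show this gap, at 0.39 in HKO and 0.38 in WT, with 75.5 CPM in the pericentral and 57.4 CPM in the periportal zone of HKO and 84.3 and 64.4 CPM in those zones of WT. Reads shared between the pair would bear on both values. Acsl1 had 622, 567 and 587 CPM in the periportal, middle and pericentral zones of HKO and 469, 569 and 757 CPM in those of WT. Its log2 ratio was -0.08 in HKO and 0.69 in WT. The library totals of Acsl1 were level, and the gap came from a higher periportal and a lower pericentral level in HKO.

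Eci2 had 372, 332 and 331 CPM in the periportal, middle and pericentral zones of HKO and 235, 255 and 310.2 CPM in those of WT. Its log2 ratio was -0.17 in HKO and 0.40 in WT. Bdh1 had 124, 114 and 113 CPM in these zones of HKO and 123, 135 and 164 CPM in WT, with log2 ratios of -0.13 in HKO and 0.41 in WT. The periportal levels of Bdh1 were alike and the pericentral ones differed. Decr1 had 99.5, 83.7 and 74.8 CPM in these zones of HKO and 54.4, 58.3 and 60.0 CPM in WT, with log2 ratios of -0.41 in HKO and 0.14 in WT. Its gap was widest in the periportal zone. After nuclei were thinned to 2000 UMIs the Eci2 ratio was 0.00 in HKO and the Decr1 ratio -0.03 in WT.

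**Figure D5:**
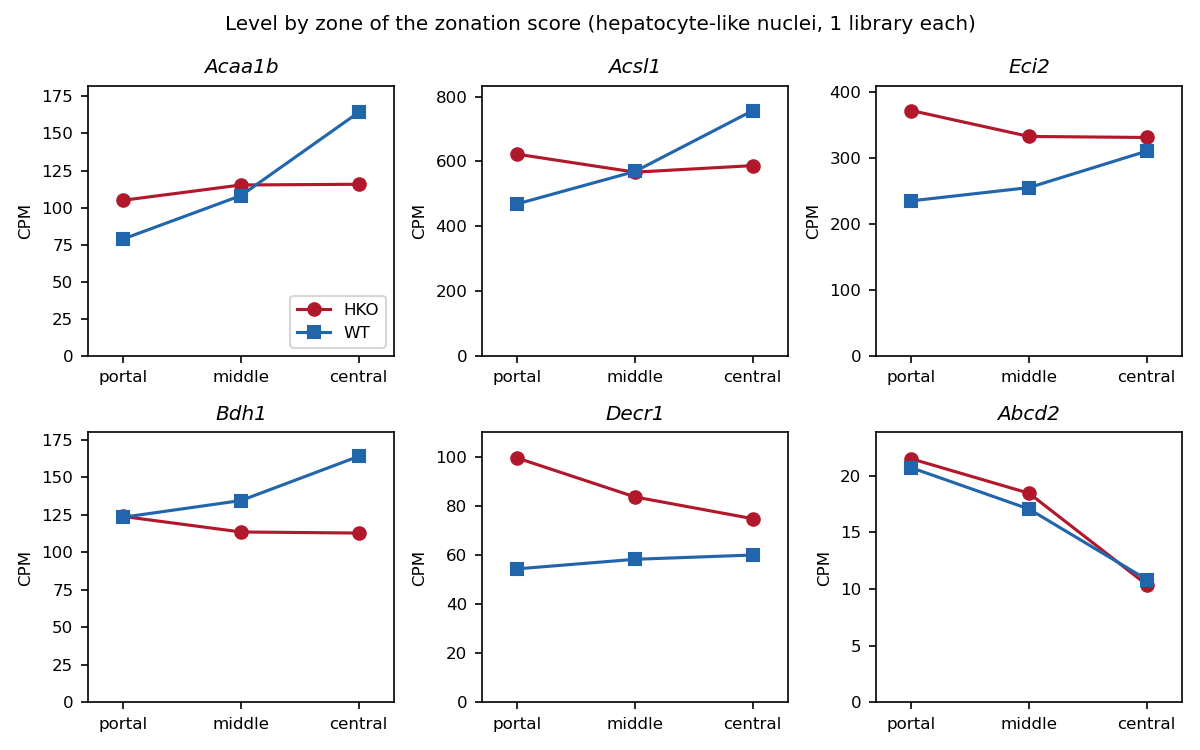
CPM of 6 members in the periportal (portal), middle and pericentral (central) zones of hepatocyte-like nuclei, HKO red circles and WT blue squares, axes from 0. Acaa1b, Acsl1, Eci2 and Bdh1 climb to the central zone in WT and are nearly flat in HKO, and Abcd2 is lower in the central zone of both libraries.

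The remaining members by rank were close to the middle. Hadh was at 0.28 in HKO and 0.28 in WT, with 68.6 CPM in the pericentral and 56.4 CPM in the periportal zone of HKO and 54.2 and 44.6 CPM in those zones of WT. These values moved with the nuclei used: Hadh was at 0.043 in HKO and 0.53 in WT among nuclei with no G2 and mitosis UMI, and at 0.048 in HKO and 0.21 in WT among nuclei with a mitochondrial share of 0.1% to 0.2%. Between the outermost of 5 equal zones it was at 0.17 in HKO and 0.33 in WT. Slc27a2 leaned periportal in HKO, at -0.28, with 435 CPM in the pericentral and 527 CPM in the periportal zone. In WT it was at 0.05. Nudt7 was weakly zonated, at -0.17 in HKO and -0.02 in WT, and its library ratio was -2.38, -2.23 and -2.23 in the pericentral, middle and periportal zones. The median library ratio of all members was 0.34 in the periportal, 0.24 in the middle and 0.15 in the pericentral zone, while that of all genes was 0.15, 0.15 and 0.17. The median mitochondrial share was 0.0640%, 0.0712% and 0.0790% in the periportal, middle and pericentral zones of HKO and 0.258%, 0.276% and 0.278% in those of WT. Nuclei with 3 or more G2 and mitosis UMIs made up 8.41%, 11.6% and 12.8% of these zones in HKO and 26.5%, 31.5% and 21.0% in WT. Among nuclei with no G2 and mitosis UMI the HKO zonation was below that of WT for 24 of the 31 members, with a median difference of -0.15, and among nuclei with a mitochondrial share of 0.1% to 0.2% for 26 of the 31, with a median difference of -0.16. After thinning to 2000 UMIs it was below for 21 of the 31, with a median difference of -0.12.

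Within each library the members were set against the cell cycle and against the mitochondrial share. In hepatocyte-like nuclei with 3 or more UMIs of the 29 G2 and mitosis genes (978 in HKO, 2548 in WT), against nuclei with none (4420 in HKO, 2791 in WT), the members had a median log2 ratio of -0.14 in HKO and -0.07 in WT, while all genes had 0.00 and 0.04. Above 0 were 3 of the 31 members in HKO (all genes 50.5%) and 10 of the 31 in WT (59.3%). Most members were thus lower in the nuclei with these UMIs in both libraries, by small amounts. Acadm was an exception in both, at 0.05 in HKO and 0.16 in WT, and Nudt7 was lower in both, at -0.23 in HKO and -0.22 in WT. Between nuclei above and below the median mitochondrial share, the members' median was 0.00 in HKO and -0.02 in WT, with 16 of the 31 above 0 in HKO (all genes 43.9%) and 10 in WT (30.7%). Beside Etfb and Acadvl, Slc27a5 was higher above the median, by 0.27 in HKO and 0.32 in WT, and Etfdh and Slc25a20 were the lowest in HKO and in WT, at -0.19 and -0.21.

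In 8 members the counting intervals of the zonation lay on opposite sides of 0 in the 2 libraries. For 7 of them the HKO ratio was periportal and the WT ratio pericentral (all genes 0.761%): Hadha, Bdh1, Decr1, Eci2, Acsl1, Abcd3 and Acot12. For Crot the HKO ratio was pericentral, at 0.13, and the WT ratio periportal, at -0.09 (all genes 1.53%). Acot12 had 193 and 219 CPM in the pericentral and periportal zones of HKO and 155 and 128 CPM in those of WT. The intervals cover counting error within a library only. They narrow with more UMIs, so well counted members clear 0 more easily than genes near the floor. Abcd3 cleared it at -0.07 in HKO and 0.10 in WT, with 3783 pericentral and 4097 periportal UMIs in HKO. The numbers of members are therefore not read against these shares of all genes. Thinning of the nuclei turned the sign of Eci2 in HKO and of Decr1 in WT, so neither kept opposite signs in the libraries.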

How the data were processed

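The deposited tables hold raw counts of UMIs per gene and barcode for 2 libraries, with Cell Ranger 5.0.0 named per the file headers. GRCm38, STAR and Seurat 3.2.0 appear in the submitters' processing notes. The isolation of nuclei is not described in the labels. Groups come from the sample titles. Kept barcodes had a minimum of 500 genes and a mitochondrial share of UMIs under 10%. No doublet caller was run and no doublets were removed. Both libraries were clustered without batch correction (2000 variable genes, 30 components, 15 neighbours, Leiden resolution 0.5, leidenalg 0.10.2) and named by markers; the rule asking for markers above 20 CPM was set after seeing the data. Within each class, the counts of a library were summed and scaled to CPM. Log2 ratios were taken after adding 0.5 CPM, where the mean of both libraries reached 10 CPM. Intervals are exact Poisson, conditional binomial or Clopper-Pearson at 95% and cover counting error only. The ratio, zones and thinning steps were checked on simulated data. Coordinates are GENCODE vM21, GRCm38. The members and lists were chosen with earlier results of these data known. All members are reported, with full values for the 6 highest and 6 lowest ratios, the 4 most pericentral and 4 most periportal, and those past 2-fold. Of the other fat oxidation genes that passed the floor the 8 largest ratios are named, and of the other 2 lists the 2 largest. Alternatives covered scaling (median ratio, TMM in edgeR 4.0.16), floors, depth, clustering, cycling and mitochondrial share.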

Additional observations from a re-analysis of the deposited data

Results flagged for a closer look

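These 8 members are listed because, in the comparison of the pericentral with the periportal zone, their counting intervals lay above 0 in 1 library and below 0 in the other. Each value is the log2 ratio of pericentral over periportal in HKO minus that in WT. With 1 library per group the difference was not tested. It was -0.77 for Acsl1, -0.57 for Eci2, -0.55 for Decr1, -0.54 for Bdh1, -0.44 for Acot12, -0.32 for Hadha, -0.17 for Abcd3 and 0.22 for Crot.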

How the results depend on the processing

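Scaling shifted all log2 ratios of HKO over WT by -0.14 (median ratio) or -0.12 (TMM). The members' median became 0.11 and 0.12, that of the mitochondrial members 0.17 and 0.18, that of the peroxisomal members -0.14 and -0.13, and that of the other fat oxidation genes 0.0051 and 0.018, beside medians of all genes of 0.03 and 0.04. Acsl1, Acaa1b, Etfa, Abcd2 and Acadvl lay on either side of 0 with the scaling or subset used. The peroxisomal median was -0.12 at a floor of 50 CPM, 0.12 in nuclei with no G2 and mitosis UMI and 0.054 in nuclei with a mitochondrial share of 0.1% to 0.2%. Without a floor 6 other fat oxidation genes were at least 2-fold higher (all genes 477 of 27998). At a floor of 50 CPM no member was (all genes 126 of 3715), since Crat fell out. Nudt7, Crot and Acsl5 stayed at least 2-fold lower in all 13 alternatives, and Slc27a5 was 2-fold lower in 4 of them. Nuclei with no G2 and mitosis UMI were an alternative added for zonation after seeing the data. There 4 members were pericentral in WT and 8 had a difference of -0.5 or less, without a share of all genes beside them. Thinning to 2000 UMIs turned 3 zonation ratios: Eci2 in HKO to 0.0011, Nudt7 in HKO to 0.033 and Decr1 in WT to -0.029; the cause was not tested. The alternatives with the mitochondrial window and the unnamed mitochondrial cluster, and those without Sds and Hal, were also added after seeing the data. Nuclei with no mitochondrial UMI were not compared, since WT had 7. No paired analysis was possible because each group holds 1 library.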
